A study of Mus musculus with 9 samples.

Results

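Cochleae of Pou4f3(Δ/+) mice, called HET, were compared with cochleae of Pou4f3(+/+) mice, called WT, at postnatal day 3. The comparison takes 6 of the 9 libraries of the series, 3 HET and 3 WT, and 15391 of the 51912 genes listed for them. A gene was kept where at least 3 of the 6 libraries reached 1 FPKM, the number of fragments per kilobase of exon, scaled to sequencing depth. HET mice carry 1 mutant allele, Δ, beside a normal one, and WT mice carry 2 normal alleles. The series' design text describes the WT animals as littermates. The sources used here do not give the extent of the Δ deletion, the strain or the number of cochleae in a library. Groups follow the sample titles. The genotype characteristic of each sample names another genotype than its title (WT for the HET titles, and the homozygous mutant for the WT titles), so each direction given here rests on the titles. Nothing in the labels says that the 3 libraries of a group came from separate animals. The p-values therefore measure the spread between these libraries, which may be partly or, between some libraries, wholly technical.

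Pou4f3 is a POU-domain transcription factor that in the inner ear is made in hair cells, the mechanosensory cells of hearing and balance. Hair cells carry a bundle of actin-filled stereocilia whose deflection opens transduction channels, and they signal to auditory neurons through ribbon synapses. Without Pou4f3, hair cells are specified but do not mature and are lost, and in people heterozygous mutations of the gene cause a dominant, progressive hearing loss. The comparison of HET with WT addresses whether transcripts of the neonatal cochlea already differ when 1 of the 2 alleles is mutant.

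The recovered depth was between 14567401 and 17406289 fragments per library. Hair cells make up a small part of the dissected tissue, and in such bulk samples fewer cells of a type and less RNA per cell cannot be told apart. The tissue carried its defining transcripts in all 6 libraries: Otof, the calcium sensor of the hair cell synapse, lay between 30.56 and 35.34 FPKM, and Tectb, a tectorial membrane protein, between 1288 and 1907 FPKM. The libraries differed in their mix of sexes. Xist, the RNA of the inactive X chromosome, was at 0.08, 78.17 and 0.06 FPKM in WT replicates 1 to 3 and at 53.95, 107.9 and 56.88 FPKM in HET. The Y-linked gene Eif2s3y was at 25.3, 8.88 and 28.52 FPKM in WT and at 5.95, 10.49 and 19.93 FPKM in HET. WT replicate 2 and all HET libraries thus held RNA of both sexes, whereas WT 1 and WT 3 had Y-linked RNA with Xist near 0. The mix of sexes therefore differed between WT libraries and between the groups, and its part in the differences was not tested. One HET and one WT library also stood apart together: HET replicate 1 and WT replicate 3 resembled each other more than their own groups, with a Pearson r of 0.985 across the tested genes against 0.953 and 0.956 between HET replicate 1 and the other 2 HET libraries. Values within this pair (HET 1 minus WT 3) and within the other 4 libraries (mean of HET 2 and 3 minus mean of WT 1 and 2) are therefore given beside the main results.

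Pou4f3 itself, on chromosome 18, was at 25.02, 24.49 and 26.97 FPKM in WT and at 24.21, 21.74 and 25.56 FPKM in HET. The groups overlapped. The means were 25.5 ± 1.31 and 23.8 ± 1.94 FPKM (SD, n = 3 each), and HET held 93.5% of the WT level (two-sided exact permutation p = 0.4, where 3 against 3 libraries cannot go below 0.1). The 95% interval of limma's fit ran from 80.3% to 108% of WT. A halving of the WT level lies below that interval. In the libraries titled Pou4f3(Δ/Δ), which by title hold no normal allele, Pou4f3 was at 5.92, 1.36 and 9.39 FPKM. Fragments were thus counted as Pou4f3 there too. What part of the HET level came from the Δ allele was not tested.

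No gene passed the threshold between HET and WT. limma called 0 of 15391 genes (0.0%) at a Benjamini-Hochberg adjusted p under 0.05, and 266 (1.73%) had an unadjusted p under 0.05. All differences are on the log2(FPKM + 1) scale, HET minus WT. The median gene differed by 0.001, and 49.6% of genes were lower in HET. In 914 genes (5.94%) the 3 HET values did not overlap the 3 WT values, 434 (2.82%) with HET higher and 480 (3.12%) with HET lower. Of the 20 ways to split 6 libraries 3 against 3, a share of 0.1 separates a gene's values without overlap, ties aside. The 5.94% seen here lies below that share. The call depends on how the libraries are weighted. When limma gave each library a quality weight it called 1960 genes (12.7%), 857 higher and 1103 lower in HET, with weights of 0.136 for HET 1 and 0.304 for WT 3 against 8.004 for WT 2. Of those 1960 genes, 1570 had overlapping groups.

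Plscr5 had the smallest p. It encodes a member of the phospholipid scramblase family and lies on chromosome 9, from 92192936 to 92209772 on the + strand in GRCm38. Its level was 8.68, 9.68 and 9.82 FPKM in WT and 3.81, 3.67 and 4.48 FPKM in HET. Every HET library was below every WT library, and HET held 42.4% of the WT mean. The difference was -1.06 (SE 0.097), with a 95% interval of -1.29 to -0.83. The Benjamini-Hochberg adjusted p of limma was 0.285, and it was 1.00 for the gene with the next smallest p and for all others. It was -1.17 within the pair of HET 1 and WT 3 and -1.01 within the other 4 libraries. In cochleae of Pou4f3(Δ/Δ) mice, called HOM, the 3 libraries had 0.06, 0 and 0 FPKM. HOM values are given only for the 1137 genes listed for HOM, and in each of the 1137 the HOM and WT values did not overlap, so they are no independent support.

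The sequence just upstream of Plscr5 is shown because the gene had the largest difference among hair cell genes, with that of Grxcr1, the tested hair cell gene whose promoter holds the motif searched. RefSeq promoters (250 bases before to 50 after the start, GRCm38.p6) were searched on both strands for ATAATTAAT, an A/T-rich core of the sites that POU4 factors bind, chosen after the values were seen. Its capitals mark the match in either orientation. The Plscr5 stretch ends at the base before the gene.
Plscr5, chr9:92192843-92192935, + strand: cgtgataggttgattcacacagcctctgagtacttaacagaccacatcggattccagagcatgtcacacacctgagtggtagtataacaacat
Grxcr1, chr5:68031585-68031834, + strand: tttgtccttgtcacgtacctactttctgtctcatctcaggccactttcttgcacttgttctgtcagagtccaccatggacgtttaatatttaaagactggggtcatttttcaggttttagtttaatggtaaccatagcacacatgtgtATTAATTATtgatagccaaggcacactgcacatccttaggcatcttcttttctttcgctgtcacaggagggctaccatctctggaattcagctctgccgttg
The motif was in 90 of 32851 promoters (0.274%). Of 84 tested hair cell genes 67 had a promoter in the table, and 1 of the 67, Grxcr1, held it. The match lies 93 bases before the gene's start. Plscr5 had no match in its window. A match is a description of letters, and no match says only that these letters are not in this window. Grxcr1, a glutaredoxin-like protein of stereocilia, was at 21.06, 19.23 and 20 FPKM in WT and 21.05, 16.31 and 17 FPKM in HET, with overlapping groups (-0.15).

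Of the genes of the hair bundle and its transduction machinery, 39 were listed and 36 tested. Their median difference was 0.01, with 21 higher and 15 lower in HET, against a median of 0.001 over all genes. In 6 of the 36 (16.7%, against 5.94% of all genes) the groups did not overlap, 2 with HET higher and 4 with HET lower (2.82% and 3.12% of all genes). For 35 of the 36 the 95% interval lay above a halving of the WT mean, as it did for 89.8% of all genes tested. Grxcr2, which shapes stereocilia together with Grxcr1, had the smallest p of the list. It was at 50.3, 45.79 and 48.46 FPKM in WT and 38.66, 32.27 and 32.56 FPKM in HET, 71.6% of the WT mean (-0.47, SE 0.095, 95% interval -0.70 to -0.25). All 3 HET libraries were below all WT libraries, and the difference was -0.32 within the pair and -0.55 within the other 4 libraries. HOM libraries had 2.93, 0.88 and 4.88 FPKM.

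Lhfpl5, a subunit of the transduction channel complex, was at 26.17, 23.6 and 29.87 FPKM in WT and 23.07, 19.06 and 21.08 FPKM in HET, 79.4% of the WT mean. The groups did not overlap, though HET 1 and WT 2 were close (-0.32, 95% interval -0.59 to -0.05). Of the pore-forming subunits, Tmc1 was at 3.03, 4.18 and 3.18 FPKM in WT and 3.19, 3.95 and 3.44 FPKM in HET (+0.03), with overlapping groups. Tmc2 was at 4.48, 3.59 and 3.06 FPKM in WT and 3.6, 5.36 and 4.5 FPKM in HET (+0.22), and the groups overlapped too. Tmie, their partner at the channel, stood at 6.8, 6.86 and 7.2 FPKM in WT and 7.21, 6.74 and 7.05 FPKM in HET (+0.01), within its own spread. Cdh23 (+0.10) and Pcdh15 (+0.07), the cadherins of the tip link that gates the channel, had overlapping groups too. Of the other genes with groups that did not overlap, the actin bundling gene Espnl (-0.20) and the scaffold gene Whrn (-0.17) were lower in HET, and the myosin gene Myo3a (+0.21) and Xirp2 (+0.12), an actin-binding gene, were higher. The motor genes Myo7a (+0.11) and Myo6 (+0.13) and the crosslinker gene Pls1 (+0.01) had overlapping groups.

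Synapse and ion channel genes had a median difference of 0.02 over 16 tested of 20 listed, with 10 higher and 6 lower in HET. For all 16 the interval lay above a halving (89.8% of all genes). The groups did not overlap in 2 genes (12.5%, against 5.94% of all genes), both lower in HET. Atp2a3, a calcium pump of internal stores, was at 9.82, 10.09 and 9.48 FPKM in WT and 6.43, 8.14 and 8.44 FPKM in HET, 78.3% of the WT mean (-0.32, 95% interval -0.58 to -0.06). Its lowest library was HET 1. Otof was at 34.36, 33.58 and 35.34 FPKM in WT and 30.56, 32.1 and 33.26 FPKM in HET, so the groups were apart by a narrow margin at 92.9% of the WT mean (-0.10). Slc17a8, which loads glutamate into the vesicles of inner hair cells, was at 3.49, 3.39 and 2.46 FPKM in WT and 3.22, 4.16 and 4.18 FPKM in HET (+0.24). The calcium channel gene Cacna1d (+0.002), the ribbon gene Ctbp2 (+0.02) and Chrna10, a subunit of the efferent receptor (-0.06), had overlapping groups. Cabp2, a calcium-binding modulator of the channel, was listed at 0 in all 6 libraries.

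Transcription factors and other identity genes of hair cells had a median difference of -0.03 over 27 tested of 29 listed, with 12 higher and 15 lower in HET. Gfi1, whose zinc finger protein hair cells need to survive and which is a reported target of Pou4f3, was at 8, 7.17 and 7.63 FPKM in WT and 7.51, 8.42 and 7.69 FPKM in HET (+0.04, 95% interval -0.15 to 0.24). Lhx3, a LIM homeobox factor and another reported target, was at 5.19, 4.46 and 6.36 FPKM in WT and 4.63, 3.43 and 4.29 FPKM in HET (-0.30), and the groups overlapped. Nr2f2, an orphan nuclear receptor gene, had groups that did not overlap at a small difference, 20.31, 19.64 and 19.28 FPKM in WT against 17.46, 17.86 and 17.44 FPKM in HET (-0.16, SE 0.065). In all, 5 of 6 genes on the list of reported targets were lower and 1 higher, with a median of -0.05. Atoh1, the factor that starts hair cell fate, was at 4.68, 4.34 and 4.77 FPKM in WT and 4.88, 3.33 and 4.94 FPKM in HET (-0.07). Anxa4, an annexin of hair cells, was higher without overlap, at 15.52, 14.23 and 15.1 FPKM in WT and 17.37, 16.02 and 18 FPKM in HET (+0.18), as was Kncn (+0.18), named for the kinocilium near which its protein is found. Calb2, a calcium buffer of hair cells and of neurons, was at 41.66, 53.92 and 71.15 FPKM in WT and 53.66, 30.23 and 32.14 FPKM in HET (-0.53). Its interval of -1.18 to 0.12 reached below a halving. The summed level of the spiral ganglion neuron list was 301 to 394 FPKM in WT and 313 to 365 FPKM in HET, and the part of neurons in the Calb2 difference was not tested.

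The 2 largest positive differences among hair cell genes were those of outer hair cell genes, Slc26a5 and Ocm. Ocm, the calcium buffer oncomodulin, lies on chromosome 5 from 144019804 to 144026670 on the - strand. It was at 13.95, 14.61 and 15.15 FPKM in WT and 18.88, 21.24 and 19.92 FPKM in HET, 137% of the WT mean. All HET libraries were above all WT libraries (+0.43, SE 0.077, 95% interval 0.25 to 0.62), by 0.30 within the pair and 0.50 within the other 4. HOM libraries had 4.29, 0.54 and 6.93 FPKM. Slc26a5, which encodes prestin, the motor protein of outer hair cells, was at 1.70, 1.92 and 0.80 FPKM in WT and 1.26, 6.23 and 5.05 FPKM in HET. HET 2 and HET 3 were above every WT library and HET 1 was not, which left an interval of -0.15 to 2.01 around +0.93. The difference was 0.33 within the pair and 1.24 within the other 4 libraries. Other outer hair cell genes were close to their WT level, among them Ikzf2 (+0.07), a factor of outer hair cell maturation, and Strc (-0.02), a stereocilia protein. The list had 10 tested genes, 5 higher and 5 lower, with a median of -0.01.

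**Figure D1:**
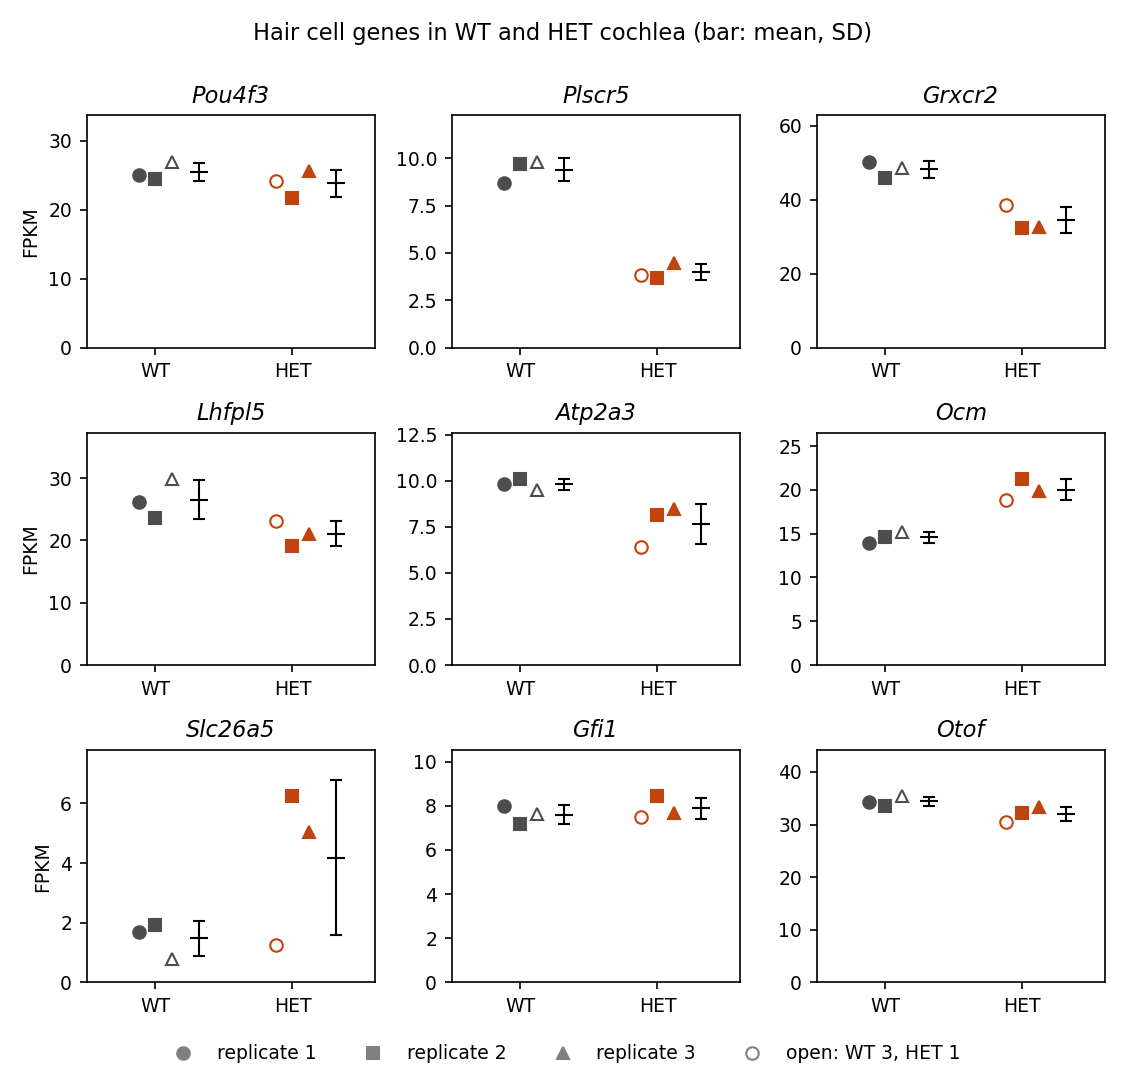
FPKM (y axis, linear from 0) of 9 hair cell genes in the 3 WT and 3 HET libraries, 1 symbol per replicate number, open for WT 3 and HET 1, with the group mean and SD at the right of each group. Plscr5, Grxcr2, Lhfpl5, Atp2a3 and Otof are lower and Ocm is higher in every HET library, whereas Pou4f3, Gfi1 and Slc26a5 overlap.

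Over the 4 hair cell lists, with each gene counted once, 84 genes were tested, and 46 were higher and 38 lower in HET (median 0.01). The groups did not overlap in 13 (15.5%, against 5.94% of all genes), 5 higher and 8 lower. The lists were chosen with earlier results of these data known, and Plscr5 is a member. Neither this share nor those of the single lists are therefore independent support. In 71 of the 84 genes the HET mean lay between 80% and 120% of the WT mean. The share of all genes within these bounds was not determined, so this count cannot be read as particular to hair cell genes. The interval was above a halving in 81 genes (96.4%, against 89.8% of all genes). The other 3 were Plscr5, Calb2 and the adhesion receptor gene Adgrv1, which was at 0.54 to 1.2 FPKM. The median was -0.04 within the pair and 0.02 within the other 4 libraries.

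**Figure D2:**
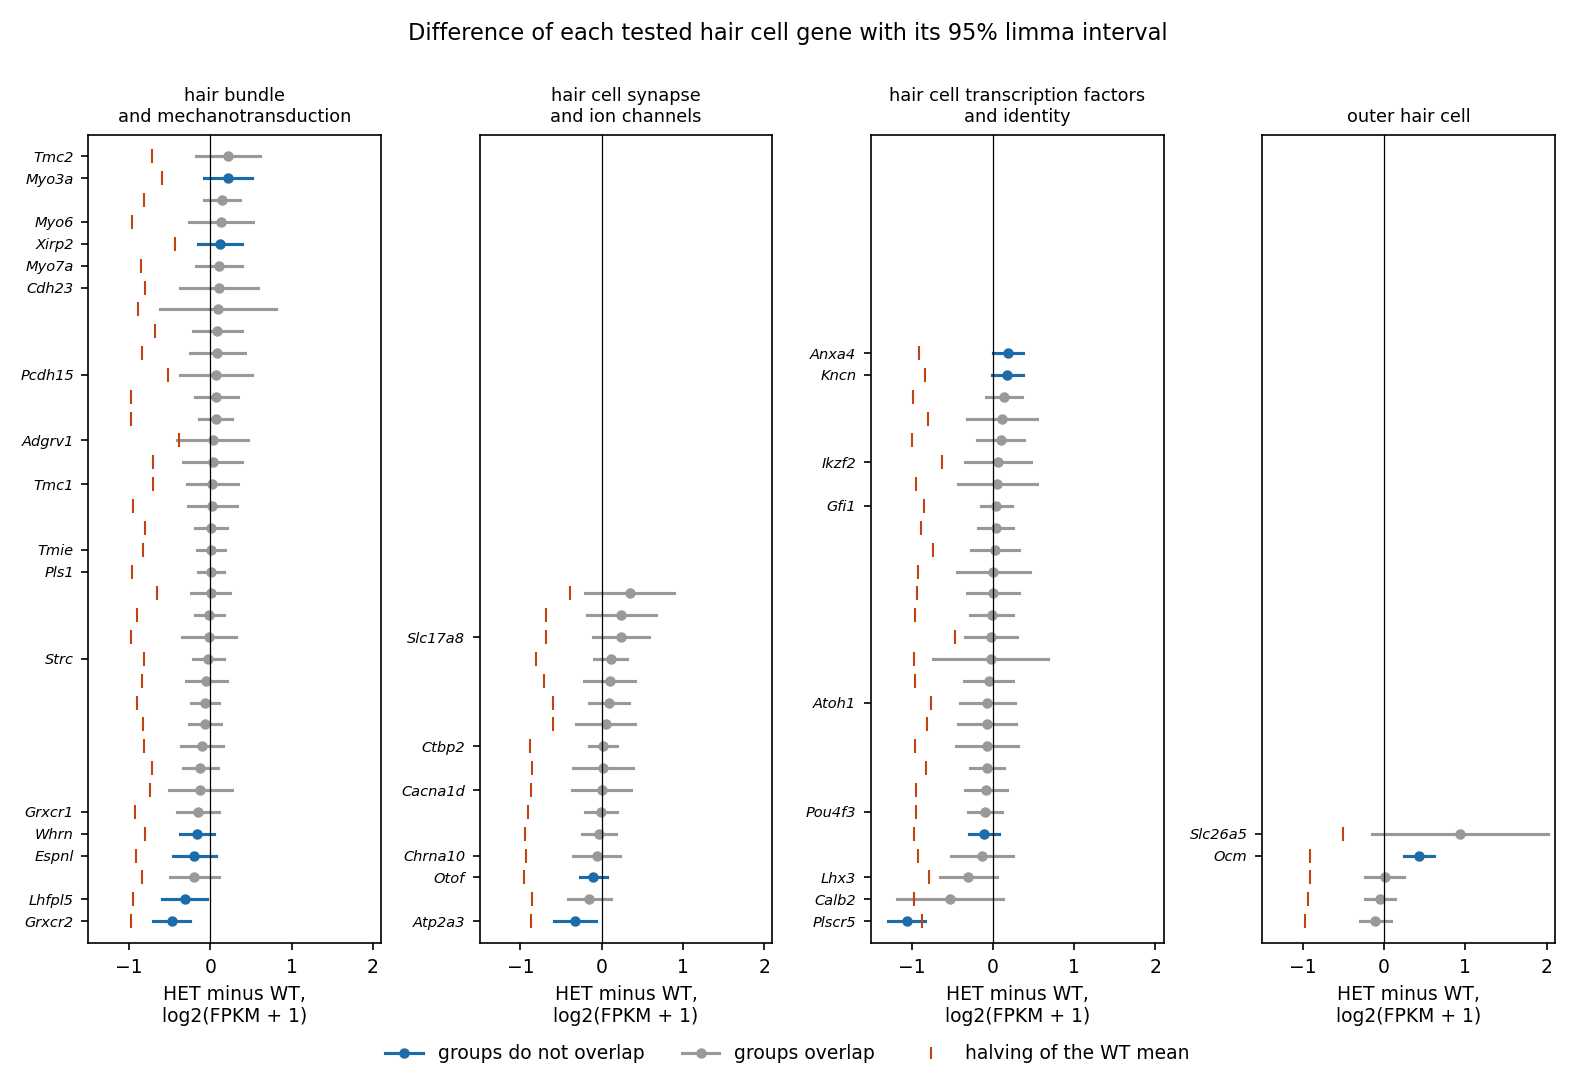
Difference between HET and WT (x axis, log2(FPKM + 1), HET minus WT) of the 84 tested hair cell genes, each drawn once in the first list that holds it (genes named in the text are labelled), with limma's 95% interval; the red mark is the value that a halving of the WT mean would give. Intervals lie to the right of the mark in 81 genes, and that of Plscr5 spans it.

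Several genes near Pou4f3 on chromosome 18 had groups that did not overlap. Of 73 tested genes within 5 Mb of its start, 9 (12.3%) had groups that did not overlap, against 8.13% of the chromosome and 5.94% of all genes. Within 10 Mb they were 13 of 145 (8.97%), a share near that of the chromosome. Within 1 Mb these were 2 of 8 genes, Grxcr2, at 0.409 Mb, and Lars (+0.11), a leucyl-tRNA synthetase gene. Gnpda1, an enzyme of amino sugar metabolism 4.07 Mb away, had the second smallest p of the comparison. It was at 7.25, 6.89 and 6.27 FPKM in WT and 11.98, 10.83 and 10.76 FPKM in HET (+0.64, SE 0.085, 95% interval 0.44 to 0.85), and at 15.78, 12.92 and 15.61 FPKM in HOM. Every HET library was above every WT library, by 0.84 within the pair and 0.55 within the other 4. Fgf1, a fibroblast growth factor gene 3.56 Mb from Pou4f3, was at 0.73, 0.83 and 0.60 FPKM in WT and 1.58, 2.01 and 1.80 FPKM in HET (+0.70, 95% interval 0.39 to 1.01), again without overlap. Rnf14 (-0.01) and Ndfip1 (-0.08), which lie on either side of Gnpda1, had HET means at 99.5% and 94.7% of WT. Farther off, at 23.5 Mb, Grp, a neuropeptide gene, was at 8.32, 5.9 and 7.49 FPKM in WT and 10.47, 11.66 and 11.9 FPKM in HET, also without overlap (+0.59). Fgf1, Rnf14, Ndfip1, Grp and Lars were chosen after their values were seen.

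**Figure D3:**
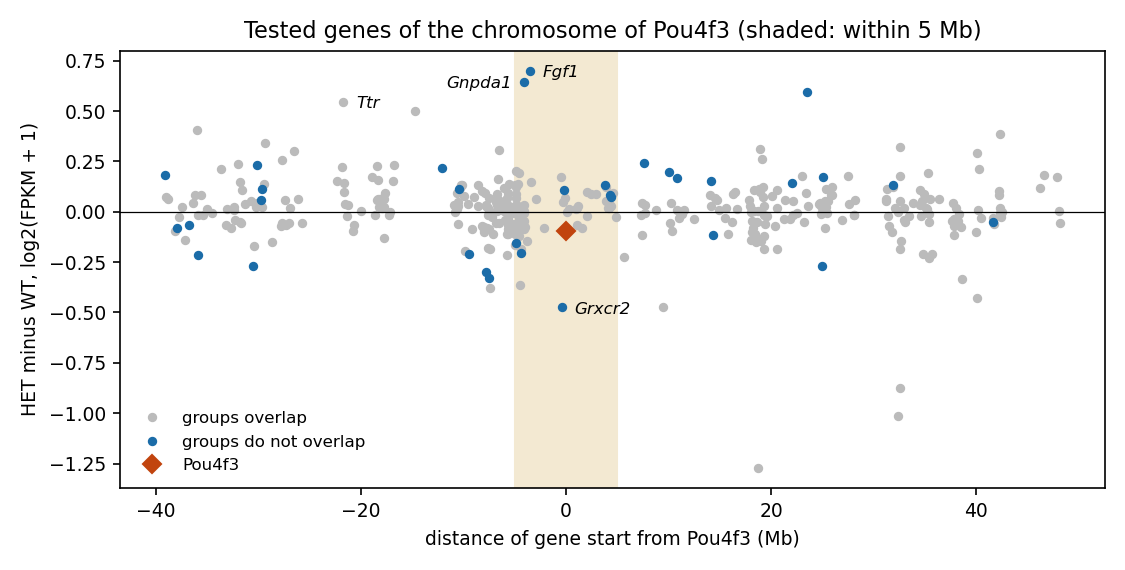
Difference between HET and WT (y axis, log2(FPKM + 1), HET minus WT) of each of the 406 tested genes of chromosome 18 against the distance of its start from that of Pou4f3 (x axis, Mb), with the 5 Mb window shaded. Gnpda1 (+0.64), Fgf1 (+0.70) and Grxcr2 (-0.47) stand out from the genes around them, and Pou4f3 (-0.09) does not.

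Chromosome 9, which carries Plscr5, held a larger share of the smallest p-values than of the tested genes. Of 53 genes with an unadjusted limma p under 0.01, 10 (18.9%) lie on chromosome 9, which holds 5.72% of the tested genes, and 7 (13.2%) on chromosome 5, which holds 6.66%. The 10 include Plscr5, and these chromosomes were singled out after the values were seen. The ranking depends on the cut. At an unadjusted limma p under 0.05 the share was 3.18% of chromosome 9 genes, against 3.46% on chromosome 14 and 1.73% of all genes. Groups did not overlap in 7.84% of chromosome 9 genes, against 8.13% on chromosome 18 and 5.94% of all genes. On chromosome 9, Stra6, the cellular receptor for retinol-binding protein, was at 6.13, 6.89 and 5.68 FPKM in WT and 4.44, 4.48 and 4.30 FPKM in HET (-0.42). Morf4l1, a chromatin factor, was at 9.65, 8.69 and 9.33 FPKM in WT and 12.06, 12.18 and 11.53 FPKM in HET (+0.34). Gnb5, a G protein beta subunit, was at 10.49, 10.23 and 11.23 FPKM in WT and 12.96, 12.93 and 13.59 FPKM in HET (+0.28). These 3 genes had groups without overlap, and Morf4l1 and Gnb5 were chosen after their values were seen. Abhd14a, a hydrolase-family gene, was at 6.76, 3.45 and 4.13 FPKM in WT and 8.07, 7.95 and 9.32 FPKM in HET (+0.75), and the ribosomal protein gene Rpl29 lies beside it.

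Other leading genes came from several classes. Spon2, a secreted matrix protein gene, was at 6.84, 6.41 and 6.08 FPKM in WT and 14.78, 9.10 and 11 FPKM in HET (+0.74). HET 1 was the highest library, and no HET library overlapped WT. The HOM libraries had 10.98, 7.97 and 10.86 FPKM. Tmem200b, a transmembrane protein gene, was lower (-0.39), and Scg2, a secretory granule protein gene of neurons and endocrine cells, was higher (+1.99). Scg2 ranged from 0.32 to 6 FPKM within WT and from 7.28 to 15.37 FPKM within HET. Several genes of short structured RNAs were among the largest differences without overlap: the small nucleolar RNA genes Gm23823 (-1.69), Snord55 (-0.82), Snord19 (-1.12) and Snord89 (-0.54), the miRNA gene Mir31 (-0.42) and the miRNA gene Mir1968 (+0.73). These genes are shorter than the inserts recovered at size selection, per the labels' protocol. The pseudogenes Gm10243 (+0.63), Gm15459 (-0.79) and Gm44954 (+0.53) and the noncoding gene Gm13373 (-0.80) were among the 10 smallest p-values of genes with a group mean of at least 5 FPKM. Among the 8 largest positive differences were also the long noncoding gene Rubie, at 17.11, 6.19 and 21.13 FPKM in WT and 22.42, 35.1 and 34.32 FPKM in HET (+1.12), and the pseudogene Rpl34-ps1 (+0.94). Reads of processed copies can be shared with the parent gene.

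Supporting cells, which surround hair cells and signal to them through Notch, had a median difference of -0.02 over 29 tested genes, 11 higher and 18 lower, and in 0 of them the groups were apart (5.94% of all genes). Sox2, their progenitor factor, was at 75.06, 83.3 and 100.1 FPKM in WT and 95.88, 73.49 and 82.52 FPKM in HET (-0.03), and Fgfr3 (+0.07), a receptor gene of pillar and Deiters' cells, overlapped too. Among 20 Notch pathway genes 14 were lower and 6 higher in HET, with a median of -0.05. Nrarp, a feedback target of Notch, was at 7.08, 7.39 and 8.04 FPKM in WT and 5.95, 6.54 and 6.03 FPKM in HET, without overlap (-0.24, 95% interval -0.44 to -0.05), and HOM libraries had 5.47, 5.16 and 5.78 FPKM. Heyl (-0.12) was also lower without overlap, whereas Hes5 (+0.15), Hes1 (-0.03) and Hey1 (-0.03), effectors of the pathway in the organ of Corti, had overlapping groups. Rbpj, the DNA-binding effector, was at 5.78, 4.71 and 2.82 FPKM in WT and 7.05, 5.46 and 5.55 FPKM in HET (+0.40), with overlapping groups. Its difference was 1.075 within the pair of HET 1 and WT 3 and 0.064 within the other 4 libraries.

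Immediate early genes, which are induced within minutes of a stimulus, were lower in 13 of 14 tested members (49.6% of all genes), with a median of -0.15. In 11 of the 14 HET was lower in both subsets of libraries, against 24.3% of all genes. Egr3, a zinc finger factor of this class, was at 3.73, 2.81 and 3.97 FPKM in WT and 1.90, 1.91 and 1.45 FPKM in HET, 50.05% of the WT mean (-0.70, 95% interval -1.04 to -0.37), without overlap. Egr1 was at 7.31, 7.27 and 7.02 FPKM in WT and 6.61, 5.16 and 4.93 FPKM in HET (-0.33). Klf4 (-0.29) and Jun (-0.13) were the other 2 of 4 without overlap (28.6%, against 5.94% of all genes). This list too was chosen with earlier results of these data known. The median was -0.10 within the pair and -0.20 within the other 4 libraries. Egr1 is on chromosome 18, within 10 Mb of Pou4f3. Over protein-coding genes the difference between HET and WT ran against the GC content of the longest transcript (Spearman rho -0.435). The part of GC content in the differences of the immediate early genes was not tested.

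Genes of the lateral wall and of tissues around the duct are given next. The 7 tested genes of Reissner's membrane and endolymph transport were all higher in HET, with a median of 0.16, and in 0 the groups were apart (5.94% of all genes). The median was 0.31 within the pair and 0.10 within the other 4 libraries, and 4 of the 7 were higher in both. WT 3 was low, with a summed level of 1420 FPKM against 1803 and 1896 FPKM in WT 1 and WT 2 and 1846 to 1963 FPKM in HET. Ttr, a carrier of thyroid hormone and retinol, was at 34.8, 40.66 and 29.66 FPKM in WT and 65.72, 50.53 and 40.31 FPKM in HET (+0.55), and WT 2 exceeded HET 3 by a small margin. Bone genes were lower in 10 of 10 tested members, with a median of -0.18 that was -0.04 within the pair and -0.34 within the other 4 libraries. Acp5, an enzyme of bone-resorbing osteoclasts, was at 2.58, 6.22 and 1.95 FPKM in WT and 1.57, 1.08 and 0.44 FPKM in HET (-1.10), with WT 2 far above the other WT libraries. The summed level of the bone list was 64.7 to 99.5 FPKM in WT and 51.3 to 85.8 FPKM in HET. Schwann and satellite glia genes were lower in 17 of 20 (median -0.25), but the subsets differed: the median was 0.08 within the pair and -0.44 within the other 4 libraries. The summed level of the glial list was 612 to 824 FPKM in WT and 494 to 901 FPKM in HET. Spiral ganglion neuron genes, 11 higher and 9 lower of 20, had a median of 0.01. Zic2, a transcription factor gene of the brain list, was lower without overlap, at 44.02, 44.12 and 42.6 FPKM in WT and 39.3, 35.81 and 37.36 FPKM in HET (-0.21). The brain list did not go the same way: 4 of its 6 tested genes were higher in HET, with a median of 0.03. The part of tissue dissected along with the cochlea in these differences was not tested.

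**Figure D4:**
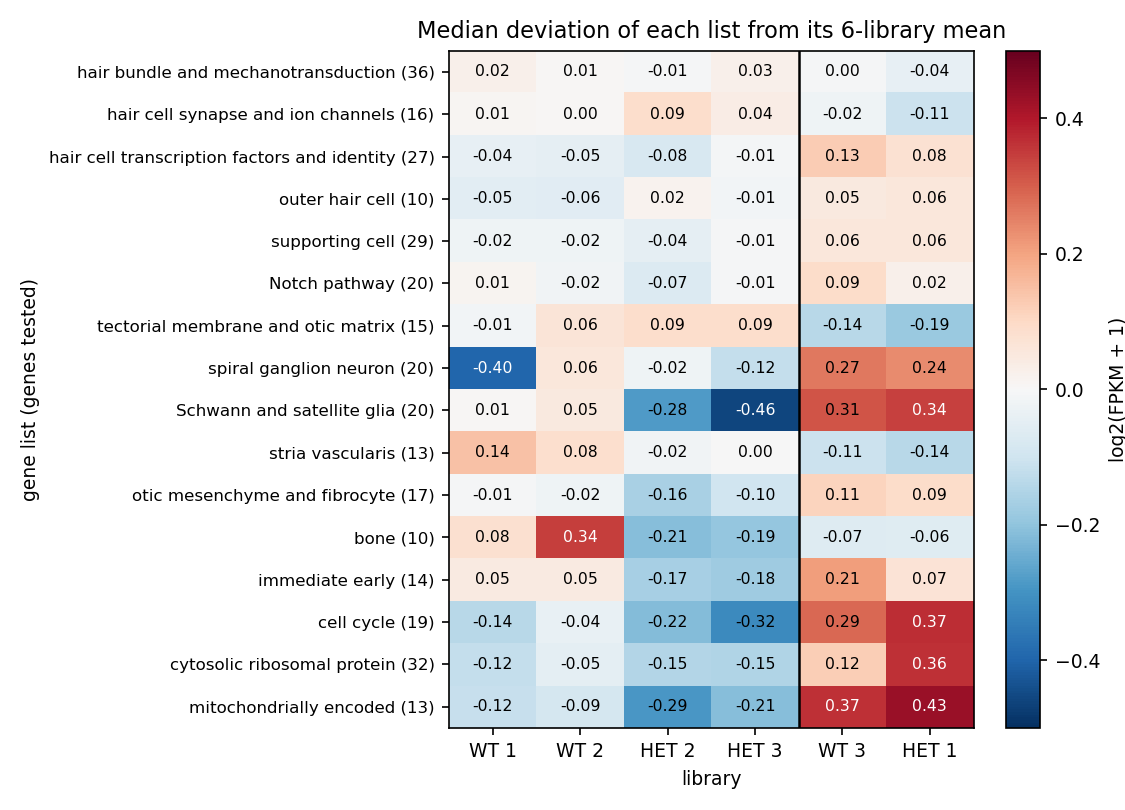
Median deviation of each gene list from its mean over the 6 libraries (colour and printed value, log2(FPKM + 1)), with WT 1, WT 2, HET 2 and HET 3 left of the line and WT 3 and HET 1 right of it. Hair cell and supporting cell lists stay within 0.13 of their means in every library, whereas glial, cell cycle and mitochondrial lists are highest in WT 3 and HET 1.

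The spread within the groups was large and structured. The first principal component of the 6 libraries held 58.1% of the variance and placed HET 1 and WT 3 on one side, with loadings of 0.61 and 0.51, and the other 4 libraries on the other, from -0.41 to -0.08. WT 2 was the nearest of the 4 to the pair. Mitochondrially encoded transcripts were higher in the pair in 13 of 13 genes, by a median of 0.56, cell cycle genes in 18 of 19 (0.53), glial genes in 17 of 20 (0.45), neuronal genes in 16 of 20 (0.43) and cytosolic ribosomal protein genes in 30 of 32 (0.38). Tectorial membrane and otic matrix genes were lower by 0.26 and genes of the stria vascularis by 0.18. The median over all genes was 0.04. Across 12829 protein-coding genes the difference between the pair and the other 4 libraries ran against total exon length, with a Spearman rho of -0.584 across genes, which are not independent replicates. In 5 equal classes of length, the median difference was 0.27 in the shortest and -0.21 in the longest class. The difference between HET and WT had a rho of 0.228 with exon length and -0.435 with the GC content of the longest transcript. What set the 2 libraries apart was not tested.

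Within each subset the HET minus WT differences can be taken separately. The 2 sets of differences share no library, and they had the same sign in 45.2% of 15391 genes, with a Pearson r of -0.03 across genes and a Spearman rho of -0.10. A gene whose groups do not overlap has the same sign in both by construction. Cell cycle genes had a median of 0.05 within the pair and -0.17 within the other 4 libraries, and cytosolic ribosomal protein genes one of 0.23 and -0.07.

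Along this axis 68 genes set HET 1 and WT 3 apart from all the other 4 libraries by at least 1 log2 unit, and 14 of these (20.6%) lie on chromosome 17, which holds 4.68% of the tested genes. All 14 were lower in the pair, and they lie between 6.43 and 43.6 Mb. Rps2, a protein of the small ribosomal subunit, was at 299, 218 and 3.54 FPKM in WT and 3.95, 231 and 184 FPKM in HET. Rps18, of the same subunit, was at 136, 98.55 and 5.63 FPKM in WT and 4.82, 121 and 94.07 FPKM in HET. H2-T23, a nonclassical MHC class I gene, was at 9.03, 7.37 and 0.07 FPKM in WT and 0.13, 8.15 and 6.95 FPKM in HET. H2-T22 and H2-T24, its neighbours, and Dynlt1b, a dynein light chain gene, had the same pattern, and the 3 were chosen after their values were seen. None of these genes separates HET from WT.

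Copies named after Rps2, Rps18 and Atp6v0c held more fragments in WT 3 and HET 1, where the gene itself held fewer. Rps2 itself held 98 recovered fragments in WT 3 and 118 in HET 1, against 5240 to 9315 in the other 4 libraries. Rps2 and its 10 processed copies together held 11850, 9441 and 9100 fragments in WT and 10716, 10651 and 9275 in HET, so the sum in WT 3 was the lowest and that in HET 1 the second highest of the 6. Atp6v0c, a subunit of the vacuolar proton pump that also lies on chromosome 17, and its 2 copies together held 1558, 1395 and 1587 fragments in WT and 1521, 1502 and 1411 in HET, although Atp6v0c alone held 238 in WT 3 and 275 in HET 1. For Rps18 the sum was not alike: its 3 named copies held 294 and 354 fragments in WT 3 and HET 1 against 64 to 159 elsewhere, and gene and copies together held 503 and 547 against 3619 to 5725. Rpl29, on chromosome 9, was at 98.09, 2.01 and 2.05 FPKM in WT and 115, 103 and 149.8 FPKM in HET, and with its 3 named copies held 37 fragments in WT 2 and 40 in WT 3. Its 2 low libraries are not those of the pair, and WT 1 lay far above WT 2 and WT 3 and just below the lowest HET library (+3.65 between the groups). Only copies named after the parent gene were summed.

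**Figure D5:**
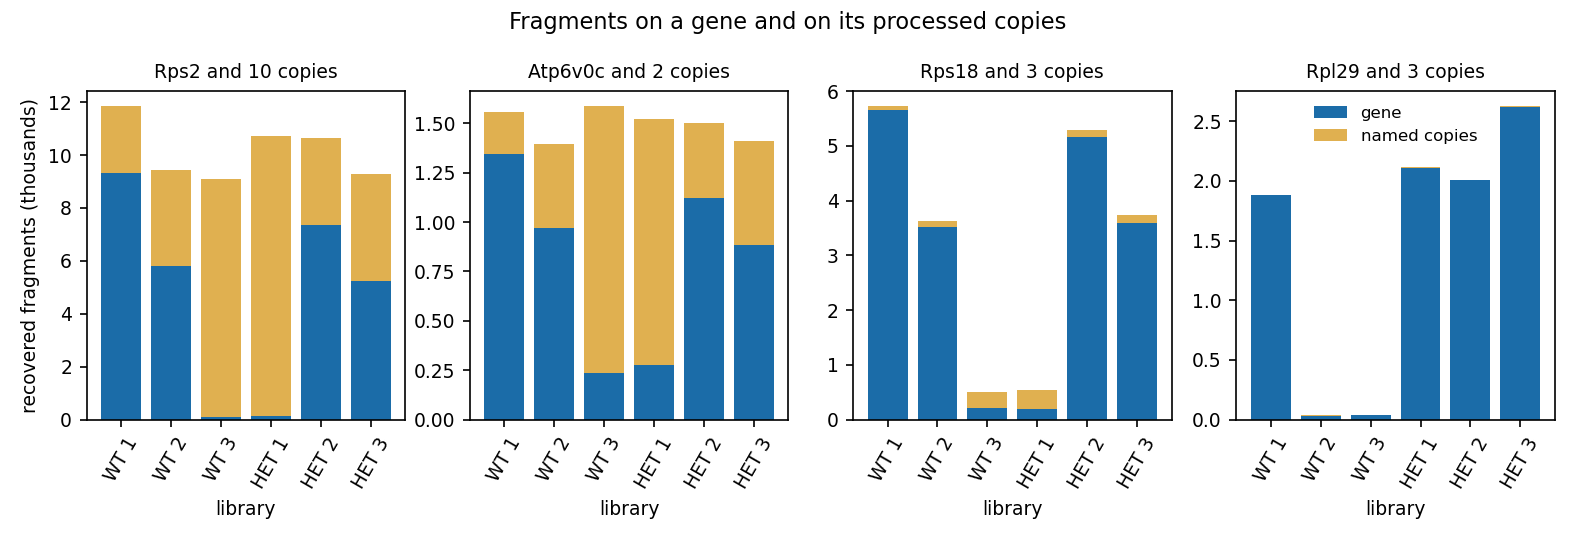
Recovered fragments (y axis, in units of 1000) on 4 genes and on the processed copies named after them, stacked, in each WT and HET library (x axis). The stacks of Rps2 and Atp6v0c have like heights in all 6 libraries while the gene's own part is smallest in WT 3 and HET 1; those of Rps18 and Rpl29 do not.

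With this spread, the precision reached differed between levels of expression. The 95% interval of a difference had a median half-width of 0.31 log2 units, or 1.24-fold, over all genes. It was 0.41 under 2 FPKM, 0.32 at 2 to 5 FPKM, 0.27 at 5 to 20 FPKM, 0.26 at 20 to 100 FPKM and 0.36 over 100 FPKM. The interval was within a halving and a doubling of the WT mean for 86.7% of genes.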

How the data were processed

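RNA-seq values were deposited for 3 WT and 3 HET libraries of cochlea at postnatal day 3. The authors deposited FPKM per gene and library, per the file headers, with 2 decimals. The submitters' processing notes name DESeq2 and the mm8 build, and the sources used here do not give the aligner, counter or annotation. Of 51912 gene identifiers, 51719 matched GENCODE M21 (GRCm38). Whole fragments and depth were recovered from the steps of low values, where 99.4% to 99.7% came out whole within 0.1 of a fragment, and summed to 108% of the recovered depth. Genes that reached 1 FPKM in 3 or more of the 6 libraries were tested with limma 3.58.1 (R 4.3.3) on log2(FPKM + 1), with a mean-variance trend, two-sided, with Benjamini-Hochberg adjustment. This scale understates differences of low genes. Pou4f3 was also tested with an exact permutation test. The fit was tested on simulated data with noise drawn independently for each gene and library. That simulation lacked the pattern shared by HET 1 and WT 3, so it cannot show how the intervals hold under it. Coordinates are those of GENCODE M21 and RefSeq on GRCm38, not of the build in the processing notes.

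Members, 30 gene lists and tests were chosen with earlier results of these data known. Genes named were drawn from Pou4f3, the 10 smallest p-values and the 8 largest differences in each direction without overlap (group mean of at least 5 FPKM), hair cell list members, each other list's smallest p in each direction, 8 genes at each end of the first component, and genes spanning 3 log2 units within a group. Others named were chosen after their values were seen, and some list members are counted but not reported here by name. Alternatives were a pseudocount of 0.1, other filters and scalings, each library left out, HET 1 and WT 3 left out together, a replicate block, library quality weights, no trend, and limma-voom on recovered fragments.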

Additional observations from a re-analysis of the deposited data

How the results depend on the processing

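The number of genes called in HET against WT was 0 in limma and also 0 with a pseudocount of 0.1, other filters, both scalings, no trend, limma-voom, and HET 1 and WT 3 left out together. Leaving out 1 library called between 0 and 1 gene (Rpl29 without WT 1, Xist without WT 2). limma with library quality weights called 1960. The count with an unadjusted p under 0.05 was 266, and 5490 with quality weights, 778 of 31906 with no filter, 117 of 9471 at a mean of at least 5 FPKM, 211 of 15362 in limma-voom, 1833 without HET 1, 2356 without HET 1 and WT 3 together, and 167 without HET 3. The cause was not tested. Same-numbered libraries did not deviate together (r of -0.52, 0.29 and -0.47), so the numbers were not taken to pair the libraries, and with a replicate block limma called 0 genes, 173 with an unadjusted p under 0.05. Of 25 genes shown, 19 were called with quality weights, as were 12.7% of all genes. Of the 25, 0 reversed under the alternatives that tested them (20 genes at a mean of at least 5 FPKM, 24 where a HET library or HET 1 and WT 3 were left out, and 25 in the others). Genes shown were in part chosen by small p or by groups that did not overlap in these libraries. Such a choice raises the share called, and groups that do not overlap cannot reverse when a library is left out. These counts are therefore no independent support. The difference in Pou4f3 was -1.66 FPKM and lay between -2.52 and -0.61 FPKM with 1 library left out. The part of depth in the width of the intervals was not tested.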

Other observations

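The remaining lists are given by the counts and medians of HET minus WT on the log2(FPKM + 1) scale, with 0 genes called by limma as in all lists (266 of all genes had an unadjusted p under 0.05). Genes of p53 signalling and apoptosis had a median of 0.01 over 16 tested, 8 higher and 8 lower. Bbc3, a proapoptotic target of p53, was at 4.76, 5.20 and 5.51 FPKM in WT and 4.44, 4.30 and 3.97 FPKM in HET, without overlap (-0.23), and Bax (-0.02) and the survival gene Bcl2 (+0.11) had HET means at 99.4% and 108% of WT. Interferon response genes were lower in 7 of 9 (median -0.11), and Oas1a, a sensor of double-stranded RNA, was lower without overlap (-0.33). Heat shock and stress genes were lower in 9 of 12 (median -0.07).

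Genes of endothelium and pericytes were lower in 11 of 15 (median -0.08), macrophage genes in 8 of 13 (-0.05), erythroid genes in 5 of 7 (-0.17), otic mesenchyme genes in 13 of 17 (-0.06), cartilage genes in 5 of 9 (-0.01) and stria vascularis genes in 9 of 13 (-0.03). Tectorial membrane and otic matrix genes were higher in 9 of 15 (0.02), cytosolic ribosomal protein genes in 22 of 32 (0.03) and brain genes in 4 of 6 (0.03). Neurotrophin genes were lower in 5 of 6 (-0.05), mitochondrially encoded genes in 10 of 13 (-0.07) and cell cycle genes in 15 of 19 (-0.06). Skeletal muscle had 3 tested genes (median -0.02) and granulocytes 1 (0.02). Sex-linked genes were higher in 5 of 9.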
